A study of Mus musculus with 2 samples.

Results

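Macrophages with a high complement C1q signal and the Fc receptor gene Fcgr4 were examined in single cell RNA-seq libraries of dystrophic mouse muscle. A cell entered when it had at least 500 genes detected and a UMI (unique molecular identifier, standing for 1 captured RNA molecule) of at least 2 of the 5 genes Csf1r, Adgre1, Fcgr1, C3ar1 and Cd68. It also had to hold no UMI of Pdgfra, Cdh5, Cd3e or Cd79a, which mark stromal, endothelial, T and B cells. It further had at least 20 UMIs of C1qa, C1qb and C1qc together, and at least 1 each of Ms4a7 and Fcgr4. Cells were left out if they held 3 or more of 6 cell cycle genes, 3 or more of 6 resident macrophage genes, or 3 or more of 6 genes that include Ear2 and Retnla. Cells with at least 20 Spp1 UMIs together with at least 3 Gpnmb UMIs were left out too. The rule selected 510 of 8010 cells, 226 of 4527 in the Ctrl library and 284 of 3483 in the dKO library.

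C1q is the recognition part of the classical complement pathway and is made by tissue macrophages, which use it to tag dying cells and debris. Fcgr4 encodes an activating receptor for IgG on monocytes and macrophages, and Ms4a7 encodes a membrane protein of mature macrophages. In dystrophin-deficient muscle, macrophages derived from blood monocytes collect around degenerating fibres, clear debris and secrete chemokines and growth factors that act on muscle stem cells (MuSCs) and on fibro/adipogenic progenitors (FAPs). Interferon, when it binds its receptors, activates STAT and IRF factors that switch on a large set of antiviral genes and the MHC class I pathway.

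The study asked how loss of the transcription factor YY1 from MuSCs alters the other cells of dystrophic muscle. Ctrl mice carried Pax7 CreERT2/R26YFP; Yy1 +/+; mdx, and dKO mice carried Pax7 CreERT2/R26YFP; Yy1 f/f; mdx, so both had the mdx mutation of dystrophin, the Cre driver and the YFP reporter. The labels give no treatment for Ctrl and the knockout as the treatment of dKO, and no age. The study describes tamoxifen given to both genotypes, with muscle taken about a month afterwards. Cre activity was driven by Pax7, a MuSC gene, so the macrophages described here are not the cells the deletion was aimed at. Hind limb muscles of several mice were pooled for each genotype, red cells were lysed, and live cells were sorted by propidium iodide before droplet capture.

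Each genotype has 1 library, so differences have no replicate behind them and were not tested. Ranges in parentheses are 95% intervals for counting error alone, by the exact binomial for a share, the exact Poisson for a sum of UMIs, a conditional binomial for a ratio and Newcombe's method for a difference of shares. The Ctrl library held 45556596 UMIs and the dKO library 33815155, with medians of 7697 and 7615 UMIs per cell. The selected cells were deeper in Ctrl, with a median of 9688 UMIs (1052 to 40540), than in dKO, with a median of 8103 (1342 to 22206). The libraries shared 7 cell barcodes, none of them in a selected cell. Yy1 in cells with a Pax7 UMI and no marker of another class stood at 182 CPM in 58 Ctrl cells (156 to 211) and at 8.61 CPM in 15 dKO cells (1.78 to 25.2), where CPM is UMIs of the gene per 1000000 UMIs of the cells, summed. In the C1q-high Fcgr4+ cells Yy1 stood at 124 CPM in Ctrl and 137 CPM in dKO, a log2 ratio of 0.14 with a counting interval of -0.09 to 0.37.

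Of all lists, the antiviral one had most genes that were higher in dKO. A motif that interferon-activated factors are known to bind can be read in many promoters of that list. Whether the motif bears on the difference between the libraries was not tested. The motif searched was GAAANNGAAA on either strand, with overlapping matches counted, in RefSeq promoters of GRCm38.p6 that run from 250 bases before to 50 after a transcription start. It was found for 20 of the 36 antiviral genes that have a promoter in the table, 55.6%, of 46 listed. All 10 matched genes of the interferon-γ-inducible GTPase list of 16 held it. Of that list, 3 of 8 measured genes were higher in dKO by 1.5-fold or more. The antiviral gene Trim30d held the motif and stayed under that limit, at a log2 ratio of 0.55. By comparison the motif was found for 1079 of all 27025 genes (3.99%), and for 195 of the 3993 matched genes with at least 100 UMIs in the selected cells (4.88%). The shares were 3 of 14 (21.4%) for MHC class I and immunoproteasome genes, 2 of 13 (15.4%) for chemokines and 1 of 10 (10.0%) for MHC class II genes. A match describes the letters and is not a measured binding site. The promoters of the 4 antiviral genes with the motif and most UMIs in these cells are printed 5′ to 3′, from 250 bases before to 30 after the start, with matches in capitals. All 4 genes lie on the minus strand. Ifitm3, a membrane protein that blocks virus entry, is at chr7:141010715-141010994, Bst2, which tethers budding virus, at chr8:71537443-71537722, Rsad2, the antiviral enzyme viperin, at chr12:26456423-26456702, and Isg15, a ubiquitin-like modifier, at chr4:156200789-156201068.
Ifitm3: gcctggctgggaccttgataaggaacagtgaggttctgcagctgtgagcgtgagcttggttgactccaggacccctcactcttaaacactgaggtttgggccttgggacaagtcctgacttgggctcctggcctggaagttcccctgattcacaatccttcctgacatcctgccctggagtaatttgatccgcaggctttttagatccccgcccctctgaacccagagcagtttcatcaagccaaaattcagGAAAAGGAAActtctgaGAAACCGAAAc
Bst2: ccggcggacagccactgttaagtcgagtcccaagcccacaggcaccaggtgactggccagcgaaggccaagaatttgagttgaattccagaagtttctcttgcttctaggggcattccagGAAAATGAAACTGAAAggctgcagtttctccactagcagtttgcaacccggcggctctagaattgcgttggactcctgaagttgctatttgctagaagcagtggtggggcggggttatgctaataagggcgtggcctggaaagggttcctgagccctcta
Rsad2: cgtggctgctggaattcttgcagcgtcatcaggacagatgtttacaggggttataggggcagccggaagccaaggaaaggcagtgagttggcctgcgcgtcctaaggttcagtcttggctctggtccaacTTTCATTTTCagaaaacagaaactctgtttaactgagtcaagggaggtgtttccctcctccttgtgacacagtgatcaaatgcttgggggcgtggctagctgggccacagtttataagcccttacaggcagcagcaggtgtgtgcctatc
Isg15: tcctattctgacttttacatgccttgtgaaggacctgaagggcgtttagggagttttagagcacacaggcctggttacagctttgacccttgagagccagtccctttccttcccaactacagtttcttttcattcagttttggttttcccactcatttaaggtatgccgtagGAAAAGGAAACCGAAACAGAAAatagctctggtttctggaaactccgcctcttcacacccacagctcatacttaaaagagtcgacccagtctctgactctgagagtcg
In Ifitm3 the 2 matches lie just after the start, in Bst2 2 matches overlap upstream of it, and in Isg15 3 matches overlap in 1 run. The single match of Rsad2 reads on the opposite strand, as TTTCATTTTC.

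The label was checked against its markers in 6 other gates of macrophages from the same libraries, as a description, since the rule used C1qa, Ms4a7 and Fcgr4. C1qa stood at 4202 CPM in Ctrl and 5138 CPM in dKO, against 283 and 176 CPM in C1q-low cells. Ms4a7 stood at 1406 and 1550 CPM, the highest of the gates in both libraries. Fcgr4 stood at 220 and 368 CPM, also the highest. Of the markers outside the rule, Apoe, which encodes the lipid carrier apolipoprotein E, was the highest of the gates at 28162 and 27193 CPM. Lpcat2, an enzyme of lysophospholipid acylation, stood at 137 and 98.2 CPM, against at most 101 and 66.9 CPM in another gate. Calhm6, of a family of membrane channel proteins, stood at 67.1 and 89.7 CPM, again the highest. Gpr34, a lysophosphatidylserine receptor shared with microglia, stood at 85.5 and 58.3 CPM and was higher in resident macrophages, at 90.2 and 96.5 CPM. C1qa was likewise higher in resident macrophages of dKO, at 5339 CPM. Thus, of the markers outside the rule, Apoe, Lpcat2 and Calhm6 were highest here in both libraries, and Gpr34 was not. Ms4a7 and Fcgr4 are required by the rule, so their rank does not bear on the label. FAP-gate cells, which should lack these genes, held 10.3 and 8.22 CPM of C1qa and 3.06 and 1.66 CPM of Ms4a7.

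**Figure D1:**
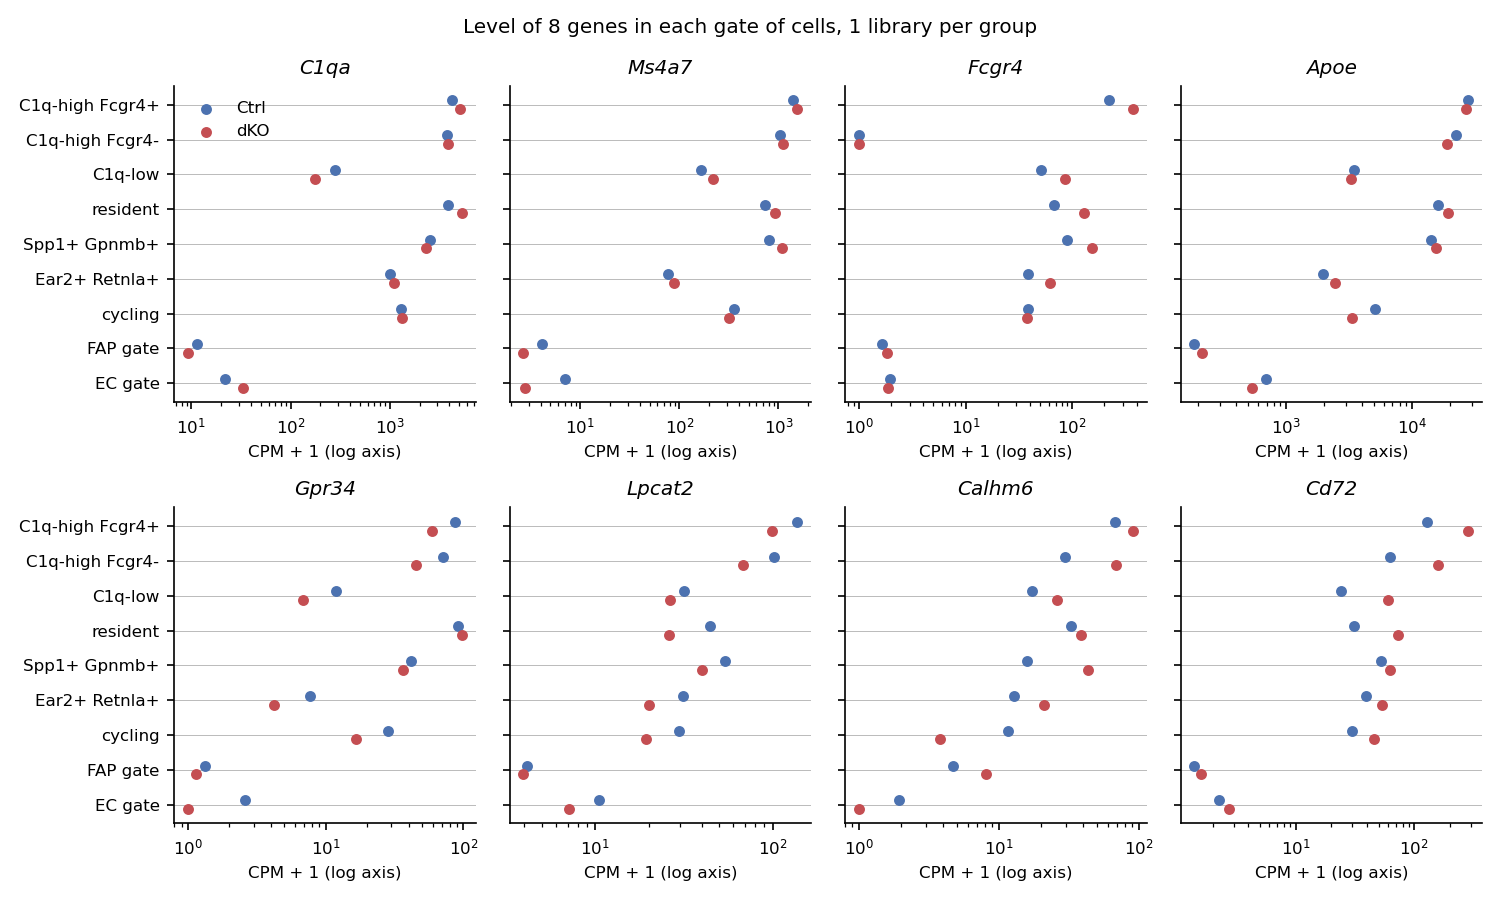
Level of 8 genes (CPM + 1, log axis) in each gate of cells, with 1 point for the Ctrl and 1 for the dKO library. Fcgr4 was highest in the C1q-high Fcgr4+ cells that were chosen on it, at 220 and 368 CPM, and was also higher in dKO than in Ctrl in C1q-low (49.7 and 84.6 CPM) and resident (66.4 and 129 CPM) cells.

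The profile of the cells against the median of the other gates, again a description, is given for the genes with the highest ratios in both libraries among 2419 at 50 CPM or more. Fcgr4, which the rule requires, stood at 5.05 times that median in Ctrl and 5.05 times in dKO. Cd72, a C-type lectin-like receptor, stood at 3.69 and 4.72 times the median, with levels of 126 and 284 CPM. Lpcat2 stood at 3.69 and 3.88 times, and Fxyd2, a regulatory subunit of the sodium pump, 3.72 and 3.19 times. Il18bp, the secreted binder of interleukin-18, stood at 2.63 and 2.66 times. Tgfbr2, a TGFβ receptor chain, stood at 2.22 and 2.37 times, and Trf, which encodes transferrin, 2.26 and 2.35 times. Another macrophage gate was higher for Tgfbr2 and Fxyd2 in both libraries and for Trf in dKO. The ratio of Ccl8, a monocyte chemoattractant, moved from 5.96 in Ctrl, above that of Fcgr4, to 2.23 in dKO while its level in these cells went from 292 to 763 CPM. In resident macrophages it stood at 1745 and 4463 CPM.

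Of the 4335 Ctrl cells with 500 genes or more, 5.21% were C1q-high and Fcgr4+ (4.57 to 5.92). In dKO the share was 8.53% of 3329 (7.60 to 9.53), a difference of 3.32 points (2.17 to 4.49). Within the macrophage gate the shares were 15.8% of 1426 and 25.9% of 1098 cells. The gate as a whole took 32.9% and 33.0% of cells. The rule uses Fcgr4, whose level itself differed. Without its condition, C1q-high Ms4a7+ cells made up 10.4% and 11.8%, a difference of 1.43 points (0.0170 to 2.87). Among those, 50.1% of 451 Ctrl cells and 72.1% of 394 dKO cells held an Fcgr4 UMI. With each cell thinned to 5000 UMIs first, the C1q-high Fcgr4+ share was 4.20% of 2949 in Ctrl (3.51 to 4.99) and 7.88% of 2271 in dKO (6.81 to 9.07). Just inside the C1q limit, 15 Ctrl and 24 dKO cells held 20 to 29 C1q UMIs, and just outside it 8 and 13 cells held 10 to 19. Cells with exactly 1 Fcgr4 UMI were 109 in Ctrl (48.2%) and 90 in dKO (31.7%), and 225 and 110 C1q-high Ms4a7+ cells held none.

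In all, 4938 genes reached 100 UMIs over the cells of both libraries, and their median log2 ratio of dKO to Ctrl was -0.02. A gene is said to have risen or fallen when its ratio was at least 1.5 or at most 1/1.5, a rule of size and not a test. By this rule 299 genes rose, 6.06% of those measured, and 176 fell, 3.56%. In the antiviral list 42 of 44 measured genes rose and 0 fell, against that background of 6.06%. In the MHC class I and immunoproteasome list 6 of 13 rose, in the chemokine list 9 of 16 and in the list of NF-κB feedback genes 5 of 10. In the MHC class II list 1 of 10 rose, and in the lists of lysosomal proteases (15 measured) and iron and heme genes (8 measured) none rose or fell. Lists of lipid handling and efferocytosis genes had 3 of 21 and 3 of 8 genes that fell and 0 that rose, against a background of 3.56% for falls.

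**Figure D2:**
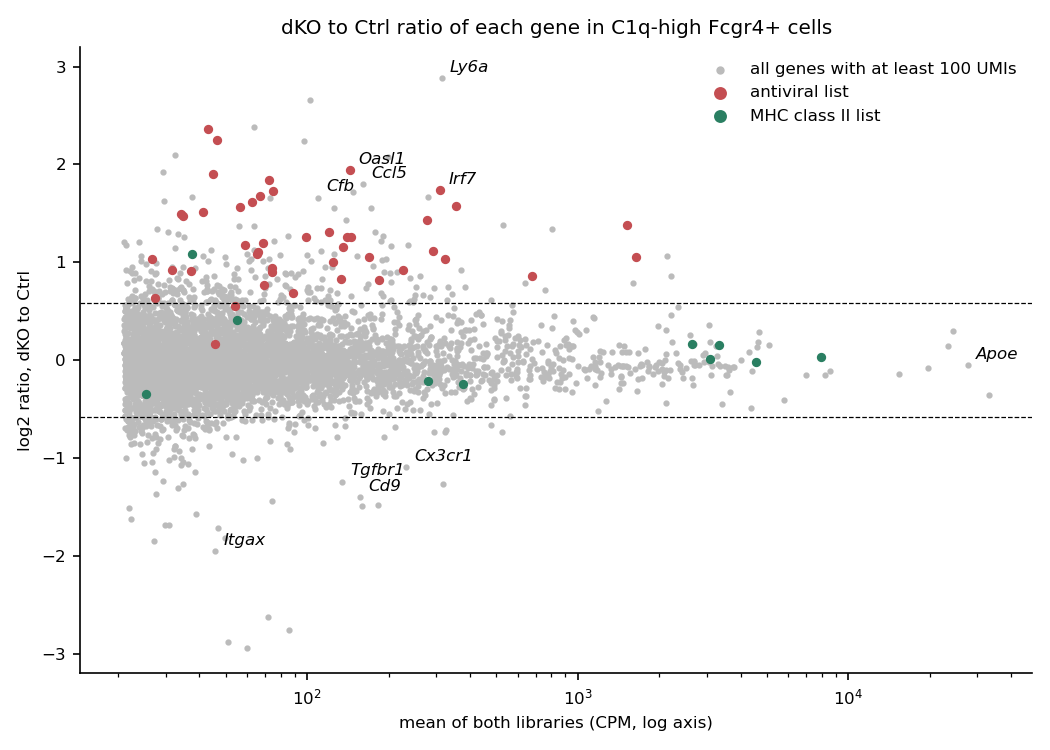
Log2 ratio of dKO to Ctrl for each of 4938 genes in the C1q-high Fcgr4+ cells (vertical) against the mean of both libraries (CPM, log axis), with antiviral and MHC class II genes coloured. Antiviral genes lie above the cloud around 0, with a median of 1.17, and MHC class II genes lie in it, with a median of 0.02; 5 genes lie outside the plotted range.

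Antiviral genes summed to 5126 CPM in Ctrl and 11693 CPM in dKO, a ratio of 2.28 (2.23 to 2.33). Ifitm3, whose promoter is printed above, stood at 1072 CPM in Ctrl and 2213 CPM in dKO, a log2 ratio of 1.05 (0.98 to 1.12). Bst2 stood at 482 and 877 CPM, a log2 ratio of 0.86 (0.76 to 0.97). Rsad2 stood at 178 and 531 CPM (1.58, 1.41 to 1.74), and Isg15 at 211 and 433 CPM (1.03, 0.88 to 1.19). All 4 printed genes were thus higher in dKO by more than counting error. Ly6e, a GPI-anchored inhibitor of coronavirus entry, stood at 843 and 2200 CPM (1.38, 1.31 to 1.46). Irf7, the factor that amplifies the interferon response, stood at 143 and 478 CPM (1.74, 1.56 to 1.92). The largest ratios of the list were those of Ifi44, at 14.0 and 72.1 CPM (2.36), and of Slfn4, a Schlafen family gene of myeloid cells, at 16.2 and 77.0 CPM (2.25). The oligoadenylate synthetase genes Oasl1 and Oas3, sensors of viral RNA or relatives of them, rose from 59.7 to 229 CPM (1.94) and from 34.7 to 115 CPM. The lowest ratios of the list were those of Cmpk2, a mitochondrial nucleotide kinase, at 43.0 and 48.5 CPM (0.17), and of the ubiquitin ligase gene Trim30d, at 43.9 and 64.4 CPM (0.55), the 2 measured genes that did not rise. Ifi27, another interferon-inducible gene, which is not in the list, fell from 109 to 59.9 CPM (-0.86). The other 2 listed genes, Mx2 and Ifit1bl1, had under 100 UMIs. The Ifit, Ifi200, Schlafen and H2-Q families hold near-identical copies between which reads may be split, so single members such as Ifit3, Ifi213 or H2-Q6 are uncertain.

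**Figure D3:**
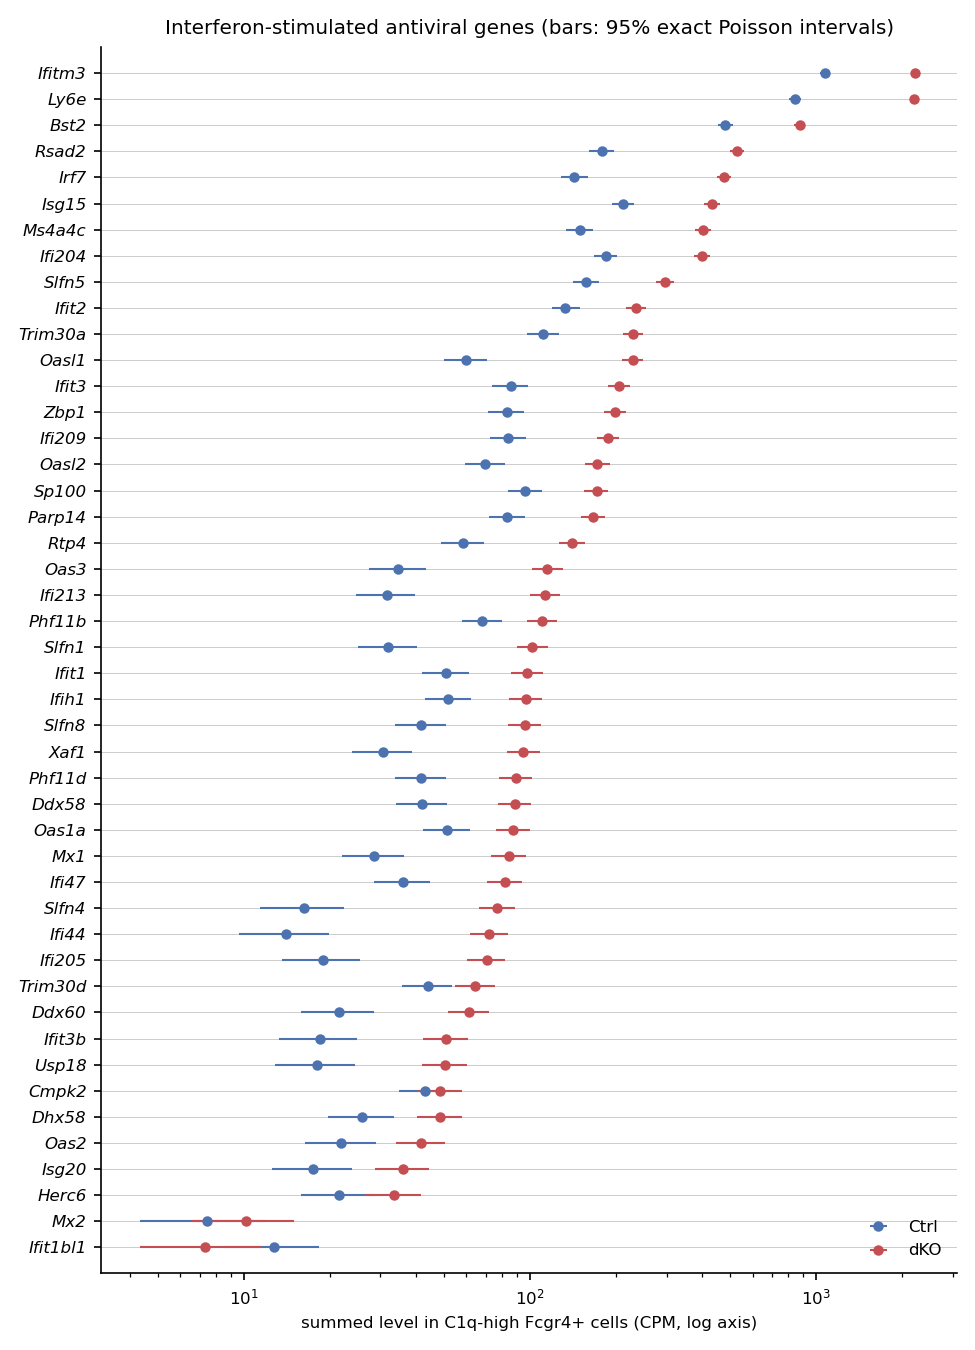
Summed level (CPM, log axis) of the interferon-stimulated antiviral genes in the C1q-high Fcgr4+ cells, with 1 point per library and bars for 95% exact Poisson intervals. The dKO point lies to the right of the Ctrl point for every gene but Ifit1bl1 (12.7 and 7.34 CPM), and the intervals of Ifit1bl1, Mx2 (7.46 and 10.2 CPM), Herc6 and Cmpk2 (43.0 and 48.5 CPM) overlap.

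The antiviral difference was spread over most dKO cells. With every cell thinned to 2000 UMIs, 223 Ctrl and 281 dKO cells remained, and 3 of each library were left out as too shallow. A Ctrl cell then held a median of 6 antiviral UMIs, from 2 at the 10th to 26.8 at the 90th percentile. A dKO cell held a median of 19, from 8 to 43. Of the dKO cells 92.5% were above the Ctrl median, as were 49.8% of the Ctrl cells, and 3 Ctrl cells and 0 dKO cells held none. In the 218 Ctrl and 106 dKO C1q-high cells without an Fcgr4 UMI, which the rule left out, the medians were 6 and 14. At this depth an Irf7 UMI was found in 22.9% of Ctrl and 50.9% of dKO cells, against 5.53% and 15.8% in the FAP gate. In the endothelial gate the Irf7 shares were 13.8% and 21.4%. An Oasl1 UMI was found in 10.3% and 24.6%, against 0.251% and 1.12% in the FAP gate, whose cells had median depths of 13484.5 and 13732 UMIs before thinning.

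**Figure D4:**
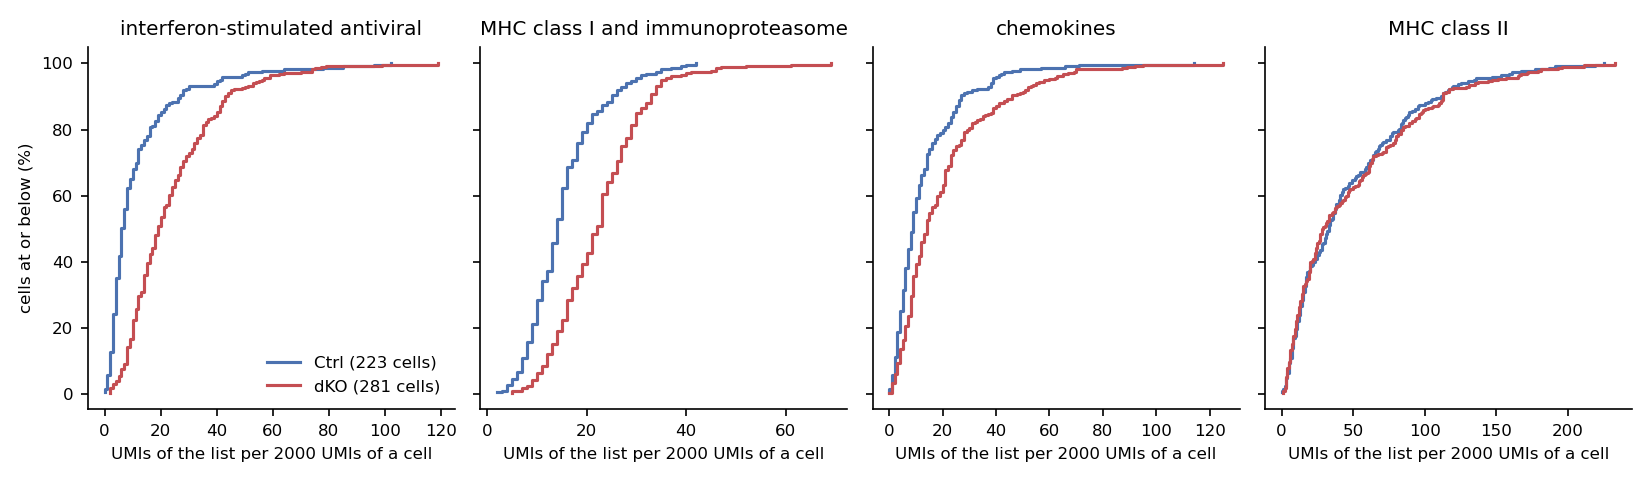
Share of cells (%) at or below each number of UMIs of a gene list, per 2000 UMIs of a cell, for the 223 Ctrl and 281 dKO C1q-high Fcgr4+ cells. The antiviral curve is shifted to the right in dKO (medians 6 and 19), the MHC class I curve less so (14 and 22), and the MHC class II curves cross each other (33 and 29).

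Interferon genes themselves were near 0, with 1 Ifnb1 UMI in Ctrl and 6 in dKO, and 0 and 1 of Ifng. Of 13 measured interferon signalling genes 3 rose, 23.1% against 6.06% of all genes. Among them Stat2, a factor activated by type I interferon receptors, rose from 39.9 to 87.2 CPM (1.13). Socs3, a feedback inhibitor of cytokine receptors, rose from 75.4 to 204 CPM (1.43, 1.18 to 1.69). The receptor chains were close to level between the libraries, with Ifnar1 at 95.6 and 94.6 CPM, Ifnar2 at 264 and 307 CPM and Ifngr1 at 179 and 186 CPM. Among GTPases that interferon-γ induces strongly, which coat parasite vacuoles, 3 of 8 rose (37.5%, against 6.06% of all genes): Gbp5 (15.8 to 33.0 CPM), Irgm1 (17.1 to 33.8 CPM) and Igtp (18.4 to 34.6 CPM). Gbp2, of the same group, stood at 71.1 and 98.2 CPM (0.47, 0.17 to 0.76), and Gbp3 at 49.6 and 41.6 CPM.

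Genes that present peptides on MHC class I summed to 7364 and 10902 CPM, a ratio of 1.48 (1.45 to 1.51), whereas those of MHC class II summed to 21990 and 22710 CPM, a ratio of 1.03. H2-K1, a class I heavy chain, rose from 1575 to 2867 CPM (0.86, 0.81 to 0.92). H2-D1, the other classical heavy chain, stood at 1917 and 2786 CPM (0.54, 0.48 to 0.59), just under the limit of 1.5-fold. B2m, the shared light chain, stood at 2691 and 3445 CPM (0.36). Tap1, a subunit of the peptide transporter, rose from 68.4 to 138 CPM (1.01, 0.73 to 1.29), and the immunoproteasome subunit Psmb8 from 261 to 397 CPM (0.61). On the class II side Cd74, the invariant chain, stood at 7858 and 8021 CPM (0.03) and the H2-Aa chain at 3155 and 3522 CPM (0.16). Ciita, the master activator of class II genes, stood at 28.5 and 22.4 CPM. The gene of this list that rose was Cd40, a costimulatory receptor, from 24.1 to 50.9 CPM (1.08, 0.61 to 1.56). At 2000 UMIs per cell, 81.1% of dKO cells were above the Ctrl median for class I genes, and 45.9% for class II genes.

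Chemokine genes summed to 5815 CPM in Ctrl and 9511 CPM in dKO, a ratio of 1.64 (1.60 to 1.67). The ligands of Ccr2 that draw monocytes rose together: Ccl7 from 134 to 426 CPM (1.67, 1.49 to 1.86), Ccl12 from 68.9 to 226 CPM (1.72) and Ccl2 from 113 to 262 CPM (1.22). For each of the 3, a single dKO cell held over 10% of the UMIs, and a single Ctrl cell held 24.2% of the Ccl12 UMIs; all 3 rose without such cells. FAP-gate cells held 1110 and 1506 CPM of Ccl7 and 1249 and 1563 CPM of Ccl2, more than the macrophages, so for these genes free RNA and expression cannot be told apart. For Ccl12 they held 0.483 and 0.453 CPM. Ccl8 rose from 292 to 763 CPM (1.38, 1.26 to 1.51). Ccl4, a macrophage inflammatory protein, rose from 456 to 1151 CPM (1.34, 1.23 to 1.44), and Cxcl2, which draws neutrophils, from 1172 to 2021 CPM (0.79). Cxcl3, its close relative, fell from 118 to 77.0 CPM (-0.61, -0.89 to -0.34), a call that is lost once the top Cxcl3 cell of either library is left out (97.4 and 67.1 CPM, -0.54). Pf4 stood at 1210 and 1278 CPM.

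Ccl5, a T cell and macrophage attractant that the study followed in MuSCs, stood at 71.5 CPM in Ctrl and 249 CPM in dKO (1.80, 1.55 to 2.06). It lies on chromosome 11 from 83525778 to 83530518 (GRCm38). A single Ctrl cell held 46.6% of that library's Ccl5 UMIs, and once the top Ccl5 cell of either library was left out the levels were 38.4 and 226 CPM (2.56, 2.23 to 2.90). At 2000 UMIs per cell 4.04% of Ctrl and 11.7% of dKO cells held a Ccl5 UMI, against 0.628% and 0.374% in the FAP gate. Cxcl10, an interferon-induced T cell attractant, stood at 142 and 262 CPM (0.89, 0.69 to 1.08), with 16.2% of the dKO UMIs, and a larger share of the Ctrl UMIs, in 1 cell. Its thinned shares of 9.42% and 14.9% of cells were not above those of the FAP gate, 10.9% and 16.8%, so they are not read as a difference between cells. Cxcl9 stood at 12.3 and 149 CPM, with 28.8% of the dKO UMIs in 1 cell. It was found in 1.79% and 3.91% of thinned cells, against 5.03% and 7.72% in the FAP gate and 0.459% and 0.943% in C1q-high Fcgr4- cells. FAP-gate cells may express Cxcl9 and Cxcl10 themselves, so free RNA and expression cannot be told apart from these shares.

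Receptors and adhesion genes typical of monocyte-derived cells went in both directions. Cx3cr1, the fractalkine receptor, fell from 316 to 149 CPM (-1.09, -1.27 to -0.90), and without the cell with most of its UMIs in each library from 297 to 123 CPM (-1.28). Ccr2, the receptor of the ligands above, fell from 260 to 163 CPM (-0.68, -0.86 to -0.49). Itgax, an integrin chain of dendritic cells and some macrophages, fell from 72.4 to 18.7 CPM (-1.95, -2.45 to -1.47), the lowest ratio among the genes named by size. Itgal, the integrin chain of LFA-1, fell from 45.6 to 22.8 CPM. Ly6c2, the surface marker of classical monocytes, rose from 76.3 to 323 CPM (2.08, 1.84 to 2.33). Plac8, also high in monocytes, rose from 87.3 to 257 CPM (1.56, 1.33 to 1.80). FAP-gate cells held more Plac8, at 237 and 547 CPM, so for it free RNA and expression cannot be told apart. In thinned cells Ly6c2 was found in 7.17% of Ctrl and 23.1% of dKO cells, against 0.251% and 0% in the FAP gate. The classical monocyte list as a whole did not move one way: 2 of 9 measured genes rose and 2 fell, against 6.06% and 3.56% of all genes, and its median log2 ratio was -0.37. Lyz2 stood at 5092 and 3625 CPM (-0.49), and Fn1 fell from 268 to 96.2 CPM (-1.48), with 36.3% of its Ctrl UMIs in 1 cell.

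Among Fc receptors, Fcgr4 was chosen by the rule, and Fcgr1, the high-affinity IgG receptor that the macrophage gate also lists, rose from 286 to 481 CPM (0.75, 0.61 to 0.89). Fcgr3, another activating receptor, stood at 615 and 565 CPM, the inhibitory Fcgr2b at 212 and 200 CPM, and their shared signalling chain Fcer1g at 2876 and 3277 CPM. Fcgr4 was also higher in dKO in 4 of the 5 gates whose rules did not use it, from 49.7 to 84.6 CPM in C1q-low cells, from 66.4 to 129 CPM in resident cells, from 88.7 to 151 CPM in Spp1+ Gpnmb+ cells and from 37.1 to 60.9 CPM in Ear2+ Retnla+ cells. In cycling cells it stood at 37.2 and 36.6 CPM. Of 13 measured complement genes 3 rose and 1 fell, against 6.06% and 3.56% of all genes. Cfb, the protease of the alternative pathway, rose from 52.6 to 167 CPM (1.66, 1.37 to 1.97), C3, the central component, from 35.5 to 92.1 CPM (1.37), and C4b from 14.5 to 44.8 CPM (1.63). FAP-gate cells held more of all 3, at 206 and 359 CPM of Cfb, 856 and 1326 CPM of C3 and 126 and 232 CPM of C4b, so free RNA and expression cannot be told apart here either. C1qb and C1qc, used by the rule, stood at 4811 and 5389 CPM and at 2535 and 2857 CPM.

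Of 10 measured genes of the inflammatory cytokine list 4 rose and 0 fell, against 6.06% and 3.56% of all genes. Those that rose were Tnf, the antagonist Il1rn, the binding protein Il18bp and Casp4, a caspase and not a cytokine. Tnf rose from 49.6 to 90.1 CPM (0.86, 0.53 to 1.20) and Il1rn, the interleukin-1 receptor antagonist, from 125 to 254 CPM (1.02, 0.82 to 1.23), whereas Il1b stood at 345 and 427 CPM (0.31, 0.17 to 0.44). Il18bp rose (0.62), and Il10, an anti-inflammatory cytokine, stood at 81.1 and 104 CPM. Nos2, the nitric oxide synthase of inflammatory macrophages, had 1 UMI in Ctrl and 0 in dKO. The NF-κB feedback list had a median log2 ratio of 0.57: Tnip3, an inhibitor induced by NF-κB, rose from 35.1 to 111 CPM (1.66) and Nfkb1 from 81.6 to 136 CPM, while Nfkbia stood at 480 and 672 CPM (0.49). Of the 17 immediate early and heat shock genes, which tissue dissociation can induce, 1 rose and 1 fell, with a median log2 ratio of 0.13, and their part in these results was not tested.

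Of the genes with at least 100 UMIs, 0 of 21 in the lipid handling list and 0 of 8 in the efferocytosis list rose, which is near the background of 6.06% for lists of this size. In the lipid list Cd9, a tetraspanin, fell from 228 to 86.0 CPM (-1.40, -1.64 to -1.17), Lpl, lipoprotein lipase, from 657 to 396 CPM (-0.73, -0.85 to -0.61), and Nr1h3, the oxysterol receptor, from 46.5 to 29.8 CPM. Trem2, a lipid receptor of macrophages, stood at 948 and 844 CPM. The efferocytosis genes that fell were Mfge8, a bridge to dying cells (56.1 to 30.6 CPM), Stab1, a phosphatidylserine receptor (170 to 107 CPM), and the integrin chain Itgav (91.2 to 60.3 CPM, a call lost at 84.7 and 57.7 CPM without the top cell of either library). Mertk, the main receptor kinase of this process, stood at 71.1 and 59.5 CPM. The osteoclast-related genes Acp5, an acid phosphatase, and Atp6v0d2, a proton pump subunit, fell from 236 to 84.0 CPM (-1.49) and from 113 to 59.9 CPM (-0.91). Of the microglia-associated genes Olfml3 fell from 49.1 to 20.4 CPM (-1.27), while Sall1, a microglial factor, had no UMI in either library. Of the cathepsins, Ctsb stood at 7361 and 6627 CPM and Ctss at 4609 and 4538 CPM.

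The TGFβ ligand Tgfb1 stood at 334 and 229 CPM (-0.55, -0.71 to -0.39), just short of the size rule, and its receptor chain Tgfbr1 fell from 189 to 80.3 CPM (-1.24, -1.49 to -0.99). Tgfbr2 stood at 104 and 101 CPM. Pmepa1, a TGFβ-induced feedback gene, fell from 77.6 to 38.3 CPM (-1.02). Among other growth factors Pdgfb fell from 47.4 to 28.1 CPM (-0.75) and Igf1, which promotes muscle growth, stood at 200 and 212 CPM. Of the macrophage transcription factors Spi1 stood at 350 and 384 CPM, while Id2, an inhibitor of basic helix-loop-helix factors, rose from 247 to 414 CPM (0.75) and Runx3 fell from 123 to 77.8 CPM (-0.66). Over all genes the highest ratio by the naming rule was that of Ly6a, the Sca-1 antigen, which interferon induces in many cells. It rose from 75.4 to 553 CPM (2.88, 2.65 to 3.11), and from 54.2 to 532 CPM without the cell with most of its UMIs in each library. A Ly6a UMI was found in 6.28% of Ctrl and 42.0% of dKO thinned cells. In the FAP gate, whose cells express Ly6a, it was found in 74.7% and 93.2%, so that gate gives no background share, and free RNA and expression cannot be told apart from these shares.

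The leading axis of variation among the cells had nearly equal means in both genotypes. Principal components of 504 thinned cells over 2459 genes, without the genes of the rule, each held a small share of the variance. The first (3.31%) ran from MHC class II genes and Apoe to Lgals3, Thbs1 and Fabp5, and its mean was 0.02 in Ctrl and -0.01 in dKO. The second (2.37%, means -0.67 and 0.53) had Cxcl2 and Cd14 at 1 end and Lgals1 and Actb at the other. The third (2.24%, means -0.68 and 0.54) ran from Hspa1b, Ifitm3, Ccl4 and Ly6e to Selenop, Psap and Apoe, and its correlation with the log of depth over cells was -0.32. Across the 223 Ctrl and 281 dKO thinned cells, which share library and depth, the antiviral and MHC class I sums had correlations of 0.43 and 0.25, and the antiviral and MHC class II sums of 0.01 and -0.03. Chemokine sums and lysosomal protease sums had correlations of -0.31 and -0.34.

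The antiviral difference was found in other cells as well. Summed over the list, the log2 ratio of dKO to Ctrl was 1.19 in the C1q-high Fcgr4+ cells, 1.02 in C1q-high Fcgr4- cells, 0.94 in C1q-low, 0.99 in resident, 1.53 in Spp1+ Gpnmb+, 0.84 in Ear2+ Retnla+ and 1.14 in cycling cells. It was 0.79 in the FAP gate and 0.13 in the endothelial gate. Thus the Spp1+ Gpnmb+ cells had a larger ratio, and nothing here makes the antiviral difference particular to the C1q-high Fcgr4+ cells. For chemokines the log2 ratio of 0.71 was above those of the other 6 macrophage gates, which lay between 0.12 and 0.60. That order depended on how the cells were chosen: the ratio was 0.49 with no condition on Fcgr4, below resident (0.56) and cycling cells (0.60). It was 0.60 with these cells thinned to 2000 UMIs. Resident and cycling cells were not compared at that depth, so whether the order depends on depth was not tested. Whether that difference between gates exceeds the spread between animals cannot be tested with 1 library per genotype. Cx3cr1 was also lower in dKO in C1q-high Fcgr4- (-1.03), C1q-low (-1.38), resident (-2.30), Spp1+ Gpnmb+ (-1.35) and cycling cells (-0.82), and higher in Ear2+ Retnla+ (0.84, 0.49 to 1.20) and FAP-gate cells (1.66). Tgfbr1 had log2 ratios below 0 in all 6 gates, from -0.94 to -0.40, and in C1q-low and Ear2+ Retnla+ cells the counting interval included 0.

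**Figure D5:**
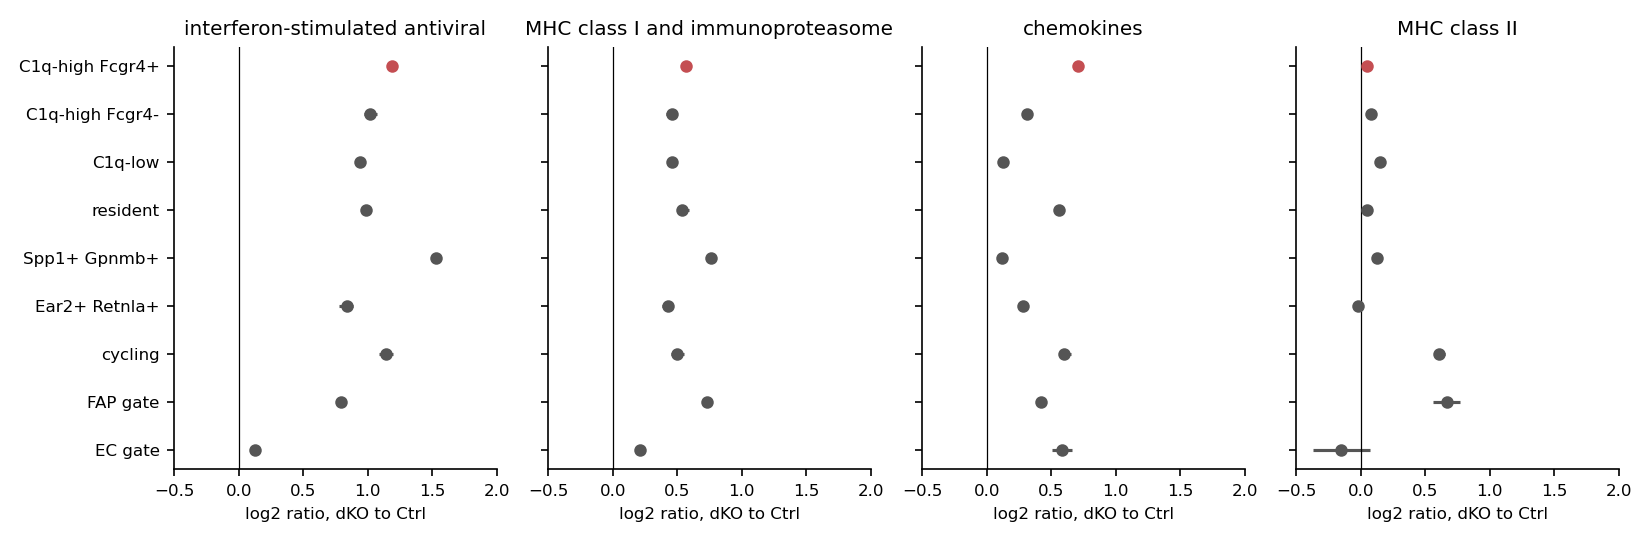
Log2 ratio of dKO to Ctrl of the summed UMIs of gene lists (horizontal) in each gate of cells (vertical), with a bar for the 95% counting interval and the C1q-high Fcgr4+ cells in red. The antiviral ratio lies between 0.84 and 1.53 in all macrophage gates and at 0.13 in the endothelial gate, while the chemokine ratio is 0.71 in the C1q-high Fcgr4+ cells (0.49 with no condition on Fcgr4) and at most 0.60 in the other macrophage gates.

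Markers of other cell types were summed beside these results. The neutrophil list (12 genes) summed to 133 CPM in Ctrl and 572 CPM in dKO, and 95.9% of the dKO S100a8 UMIs were in 1 cell. Without the top S100a8 cell of each library that gene stood at 23.7 and 7.35 CPM. The log2 ratio of the list, 2.10, was -0.59 without the cells with signals of other types, so its direction turned. The FAP and stroma list (12 genes) summed to 557 and 658 CPM, with Pdgfra at 0 by the rule. Its direction was not stable: the log2 ratio of 0.24 was -0.28 with the highest doublet scores left out. The endothelial list summed to 223 and 196 CPM, of which Fabp4, also made by macrophages, held 90.6%. T and NK cell genes summed to 22.4 and 26.5 CPM, of which Cd4 held 81.0%. B cell genes summed to 25.4 and 19.2 CPM, of which Cd79b held 89.5%. The muscle list summed to 61.4 and 67.2 CPM, with Pax7 at 0. Without the 3 Ctrl and 3 dKO cells in which neutrophil genes, stromal genes or a set of smooth muscle and keratin genes (Acta2, Tagln, Tpm2, Myl9, Krt14 and Krt5) took over 0.5% of the UMIs, 42 of 44 antiviral genes again rose.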

How the data were processed

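The authors captured live cells from pooled hind limb muscle of Ctrl and dKO mice in 10x Chromium droplets and deposited raw UMI counts per gene and cell, unnormalized, for the barcodes taken as cells. The file headers name Cell Ranger 3.0.2, while the submitters' processing notes name Cell Ranger 7.0.0, Seurat 4.3.0 and the build mm10, and which version wrote the counts is not settled. The matrices cover 24984 symbols, 0 of them mitochondrial, so no mitochondrial filter was applied.

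Keeping cells with 500 genes or more, a minimum the study's methods also state, left 4335 Ctrl and 3329 dKO cells, the numbers in the study's text (1 of its captions differs for Ctrl). A filter of 200 genes and 1000 UMIs, which the study names elsewhere, leaves 4295 and 3306 of the 4527 and 3483 barcodes. The study's methods also remove 7.5% of cells as doublets. Cells were selected by counts alone, reading "at least 2 of" a panel as the number of its genes with a UMI. UMIs were summed per library and divided by the summed UMIs of the cells (CPM). Since each genotype has 1 library, no test was run, and a gene counted as called at 1.5-fold with at least 100 UMIs. The intervals, the fold rule and the thinning were tested on simulated counts. These had no spread between cells or animals, and the choice of cells was not simulated. Doublets were kept: Scrublet's own threshold called 7 Ctrl and 14 dKO cells and has not worked, and leaving out the 7.5% highest scores removed 5 and 4 selected cells. To compare shares of cells, each was thinned to 2000 UMIs.

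The cells and the gene lists were chosen with earlier results of these data known. The genes named are the markers, those of the rule, in each list the 4 with most UMIs, the 2 highest and the 2 lowest ratios, Yy1, Ccl5 and Tgfb1, and the 12 highest and lowest ratios over all genes with at least 200 UMIs, in at least 10% of cells and with no cell above 10% of the UMIs, and the 15 leading genes of the profile. That last limit applies to the library where the gene is higher. Other listed genes were named after their values were seen, and some genes that the rule names are not reported here. The listed genes Ighd, Ighm, Ly6a2, Trac and Trbc2 matched no symbol. Positions came from GENCODE M21 (24458 of 24984 symbols matched, 97.9%) and promoters from RefSeq. Alternatives were other C1q and Fcgr4 limits, no Fcgr4 condition, thinning, doublet removal, scaling to the median gene ratio, the mean of each cell's own CPM, other UMI minimums, the macrophage gate as denominator and cells with signals of other types left out. Python 3.11.15, numpy 2.4.6, scipy 1.17.1, pandas 2.3.3, scanpy 1.11.5, statsmodels 0.14.6 and matplotlib 3.10.9 were used.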

Additional observations from a re-analysis of the deposited data

Results flagged for a closer look

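For 6 genes named above that the rule does not use, the log2 ratio of dKO to Ctrl had the opposite sign in the C1q-high Fcgr4+ cells and in another macrophage gate, with a counting interval that left out 0 in both. With 1 library per genotype the difference between gates was not tested. Ccl5 had a log2 ratio of 1.80 in the C1q-high Fcgr4+ cells and -0.34 in C1q-low cells. Ccr2 went the other way, at -0.68 and 0.25 in C1q-low cells. Cx3cr1 had a ratio of -1.09 here and 0.84 in Ear2+ Retnla+ cells. Ly6c2 had a ratio of 2.08 here and -0.43 in cycling cells. Acp5 had a ratio of -1.49 here and 2.10 in cycling cells. Apoe, at -0.05 here, had ratios of 0.24 in resident, 0.14 in Spp1+ Gpnmb+ and 0.31 in Ear2+ Retnla+ cells.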

How the results depend on the processing

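No paired analysis was possible because each genotype has 1 library, and no replicate could be left out. The difference in share of 3.32 points was 1.43 with no condition on Fcgr4 and 10.0 within the macrophage gate. The 299 risen genes became 105 with cells thinned to 2000 UMIs, where fewer genes reach 100 UMIs, and 471 with a minimum of 50 UMIs. The 176 fallen genes became 36 with thinning, 61 with a minimum of 200 and 385 with one of 50. All log2 ratios that follow are of summed lists. Requiring 2 Fcgr4 UMIs moved the antiviral ratio of 1.19 to 1.07, MHC class I from 0.57 to 0.52, chemokines from 0.71 to 0.78 and MHC class II from 0.05 to -0.13, which turned its direction. With no Fcgr4 condition they were 1.24 (antiviral), 0.49 (chemokines) and 0.16 (MHC class II). Thinning to 5000 UMIs before the cells were chosen gave 1.09, 0.49 (MHC class I), 0.81 (chemokines) and -0.02 (MHC class II). The mean of each cell's own CPM gave 1.06, 0.53 and 0.63, and thinning to 2000 UMIs gave 1.13, 0.51, 0.60 and, for MHC class II, 0.07. A C1q minimum of 40 gave 0.80 for chemokines, and scaling to the median gene ratio 0.07 for MHC class II. Antiviral genes that rose numbered 38 of 44 with 2 Fcgr4 UMIs, 44 of 44 with no Fcgr4 condition, 35 of 37 with a minimum of 200 UMIs and 18 of 20 thinned to 2000 UMIs. Of 924 other values, for 87 lists and genes, 736 stayed within the counting interval, 171 moved beyond it and 17 reversed, all 17 in lists of other cell types or glycolysis. The neutrophil ratio of 2.10, set by 1 dKO cell, was -0.48 with a C1q minimum of 40, -0.64 with 2 Fcgr4 UMIs and -0.63 with thinning to 5000 UMIs. It was -0.59 without the cells with signals of other types, an alternative chosen after seeing the data. Leaving out each gene's top cell, also chosen after seeing the data, kept 107 of 116 calls of listed genes and lost 9. Of these, Cxcl3, Osm, Itgav, Vegfb, Col1a1 and Dcn no longer passed the rule. The neutrophil genes Ngp, S100a8 and S100a9 turned from risen to fallen, with log2 ratios of the single genes of -3.11, -1.69 and -2.00. FAP and stroma (0.24) were -0.28 with doublets removed, -0.61 with thinning to 5000 UMIs, -0.08 with thinning to 2000 and -0.17 by cell means. They were -0.25 without the cells with signals of other types. Endothelium (-0.19) was 0.08 with 2 Fcgr4 UMIs and 0.04 thinned to 2000 UMIs. The erythroid and platelet list (0.08), with 99.8% of its UMIs from Pf4, was -0.06 with no Fcgr4 condition, -0.07 by cell means and -0.07 thinned. Resident macrophage genes (0.21) were -0.15 with no Fcgr4 condition and -0.02 thinned, and glycolysis (-0.09) was 0.11 thinned. The causes were not tested. Depth limits genes under 100 UMIs, which were called only in the alternative with a minimum of 50.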

Other observations

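Among scavenger and lectin receptors, outside the comparisons above, 2 of 13 measured genes rose and 1 fell by the 1.5-fold rule, against 6.06% and 3.56% of all genes. Siglec1, a sialic acid receptor of macrophages, rose from 20.2 to 44.8 CPM (log2 ratio 1.15) and Clec4a1, a C-type lectin, from 189 to 317 CPM (0.75). Pilra, an inhibitory receptor, fell from 43.9 to 25.7 CPM (-0.77). Mrc1, the mannose receptor, stood at 389 and 503 CPM. Clec4e, a lectin that senses mycobacterial glycolipid, rose from 99.1 to 207 CPM (1.06). Casp4, the inflammatory caspase counted above in the cytokine list, rose from 20.6 to 49.3 CPM (1.26). Osm, a cytokine of the interleukin-6 family, stood at 37.7 and 59.1 CPM (0.65), past the rule only with the top cell of each library (35.0 and 52.0 CPM without, 0.57).

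Some of the most extreme ratios rested on single cells and were kept out of the named genes. Ngp, S100a9 and S100a8, all of neutrophils, had 99.5%, 95.7% and 95.9% of their dKO UMIs in 1 cell. Krt14 and Tagln, of epithelial and smooth muscle cells, had 100% and 96.7% of their Ctrl UMIs in 1 cell. Hes1, a Notch target, stood at 89.9 CPM in Ctrl and 12.2 CPM in dKO (-2.88), and without the cell with most Hes1 UMIs in each library at 75.8 and 6.54 CPM (-3.53, -4.37 to -2.79).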
